A study of Danio rerio with 14 samples.

Results

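Whole zebrafish embryos with a CRISPR/Cas9 knockout of mttp were compared by RNA sequencing with their siblings, both taken 24 hours after fertilization (24 hpf). The comparison took 8 of the 14 libraries of the study, 4 of mttp mutants and 4 of siblings, each numbered 1 to 4 in the labels, which give no treatment but the knockout; the other 6 libraries came from embryos of 48 hpf. All 36109 genes of the count table were taken. Of these, 22163 passed the filter on low counts and were tested, and they held 99.9% of the counts. The labels give neither the mutant allele, nor whether the siblings were wild type or heterozygous, nor how many embryos or clutches went into a library, so each p-value reflects only the scatter among these libraries, which may be technical. All 8 libraries carry the same batch label, which is the name of the stage. In whole embryos, fewer cells of a type and less RNA per cell cannot be told apart.

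Mttp, the microsomal triglyceride transfer protein, loads lipid onto apolipoprotein B in the lumen of the endoplasmic reticulum (ER). In the zebrafish embryo it acts mainly in the yolk syncytial layer, the syncytium at the yolk surface that breaks down yolk lipid, exports it as lipoproteins and, before a liver has formed, makes many plasma proteins. Zebrafish without Mttp keep lipid in this layer as cytoplasmic droplets. A load of unfolded protein in the ER is sensed by Perk (eif2ak3), Ire1 (ern1) and Atf6, which raise chaperones and the machinery that degrades misfolded proteins. The study's title places the comparison in an axis of Hnf4 transcription factors and lipoproteins.

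Levels below are CPM, counts scaled per megaread of library total with TMM factors and not divided by gene length, given for mutants 1 to 4 and then siblings 1 to 4. Changes are log2 fold changes of mutants over siblings ± SE, with p from the quasi-likelihood test of edgeR, adjusted by Benjamini and Hochberg over all genes tested. Each SE, also for differences between stages, was worked back from that test. It is the absolute change divided by the square root of the F statistic, so it is not independent of the p-value. A gene was called at an adjusted p under 0.05.

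RNA of the targeted gene was lower in every mutant library. It measured 9.13, 7.93, 10.5 and 11.4 CPM in mutants, against 67.3, 66.4, 78.8 and 70.34 CPM in siblings (log2 fold change -2.86 ± 0.12, adjusted p = 4.30e-08), so the groups lay far apart. RNA of mttp did not vanish: the mutant libraries held 271 to 404 counts, against 2127 to 2566 counts in the sibling libraries. Of the 20 tested genes nearest to mttp in RefSeq order, 10 on each side, 3 were called, all higher: saraf, a brake on store-operated calcium entry, at 1.18 ± 0.14; stra6l, a retinol transporter, at 1.05 ± 0.23; and pla2g12a, a secreted phospholipase, at 0.58 ± 0.16. Of the 100 nearest, 8 were called, against 6.13% of all genes tested. These neighbours were named after their values were seen; the call of pla2g12a was lost without any of 7 libraries and that of stra6l without mutant 1 or 4.

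In all, 506 genes (2.28% of those tested) were called higher and 853 (3.85%) lower in mutants. Falls were more numerous and rises larger: 165 higher and 139 lower genes differed at least 2-fold, and 69 higher and 28 lower genes at least 4-fold. All 4 mutant libraries lay above all 4 sibling libraries for 1298 genes (5.86%) and below them for 1896 genes (8.55%); 487 of the genes called higher and 841 of those called lower were among these. The plot of change against level shows named genes at both ends. With the replicate number as a block, since same-numbered libraries deviated together, 1040 genes were higher and 1540 lower, including all 506 and 853. With no composition factor in the scaling, the calls turned to 803 higher and 498 lower, so that 61.7% of the calls were rises in place of 37.2%, with the median of all genes moved by 0.085. Leaving out mutant 4 left 288 higher and 367 lower, mutant 1 left 326 and 508, sibling 3 left 336 and 499, mutant 2 left 480 lower, and mutant 3 left 497 lower.

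**Figure D1:**
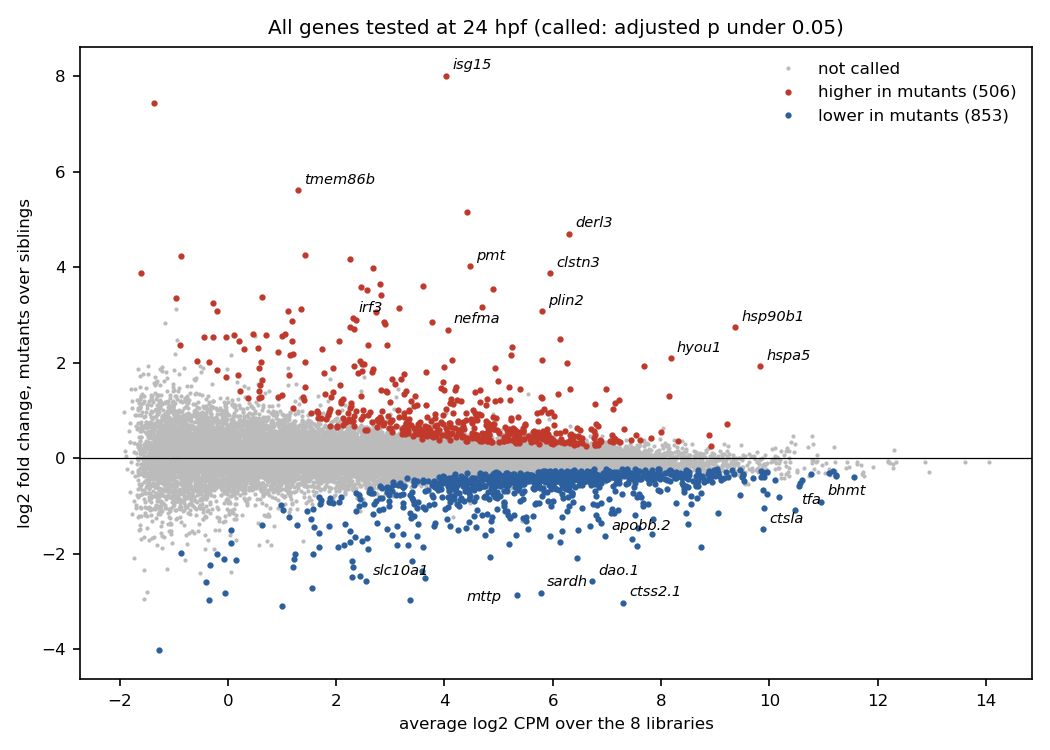
Each point is 1 of 22163 genes tested at 24 hpf, with the average log2 CPM over 8 libraries on the x axis and the log2 fold change of mutants over siblings on the y axis; red points are the 506 genes called higher and blue points the 853 called lower. Among the genes labelled in the plot, the rises reach 8.01 for isg15, and the falls reach -3.03 for ctss2.1 and -2.86 for mttp. The gene cyp11a1, not labelled, fell further than ctss2.1.

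Library totals ran from 29422983 to 37309883 counts. Genes encoded in the mitochondrial genome held 1.97, 1.72, 1.78 and 1.83% of the counts in mutants, against 1.90, 0.847, 1.27 and 1.83% in siblings (exact two-sided permutation test, p = 0.286). Sibling 2 had the lowest mitochondrial share and stood farthest out on the first principal component, which held 27.1% of the variance and had all mutants on one side and all siblings on the other. Without sibling 2, 490 genes were higher and 744 lower.

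Genes that fold proteins in the ER held some of the clearest rises. Of 39 folding genes tested, 19 were higher and 4 lower in mutants, with a median log2 fold change of 0.35, against 0.011 over all genes tested. Over all genes tested, 2.28% were called higher and 3.85% lower, which is the background for each list count here and below. hspa5, the ER Hsp70 known as BiP, measured 1689, 1278, 1462 and 1310.0 CPM in mutants, against 360.1, 357, 438 and 359 CPM in siblings (log2 fold change 1.92 ± 0.10, adjusted p = 3.02e-07). hsp90b1, its Hsp90 partner Grp94, measured 1368, 1071, 1155 and 995 CPM in mutants, against 175, 135, 219 and 155 CPM in siblings (log2 fold change 2.75 ± 0.14, adjusted p = 2.97e-07). In both genes every mutant library lay far above every sibling library. hyou1, an exchange factor of BiP, measured 541, 453, 441 and 441 CPM in mutants, against 107, 107, 119 and 104 CPM in siblings (log2 fold change 2.1 ± 0.084, adjusted p = 4.30e-08). Another exchange factor, sil1, changed by 2.5 ± 0.13, and the co-chaperones dnajc3a and dnajb9b, which hand substrates to BiP, by 2.15 ± 0.11 and 3.60 ± 0.24. The disulfide isomerases pdia4 and pdia6 changed by 1.93 ± 0.12 and 1.31 ± 0.17, the calreticulin gene calr3b by 0.72 ± 0.087, and fep15, which encodes a selenoprotein of the fish ER, by 3.42 ± 0.35. manf, an ER protein that can be secreted, sdf2l1, a cofactor of BiP, and creld2 rose by 1.28, 1.25 and 0.79. The 4 lower members were the prolyl isomerase gene fkbp9 at -0.44, the reductase gene dnajc10 at -0.37, the selenoprotein gene selenof at -0.57, and zgc:77086 at -0.38. These 7 genes were picked after their values were seen. RLE size factors and limma-voom did not call selenof. The lower count was 0 without mutant 4, 1 without mutant 3, and 2 without mutant 1, mutant 2 or sibling 3, whereas 18 or 19 members stayed higher without any 1 library.

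**Figure D2:**
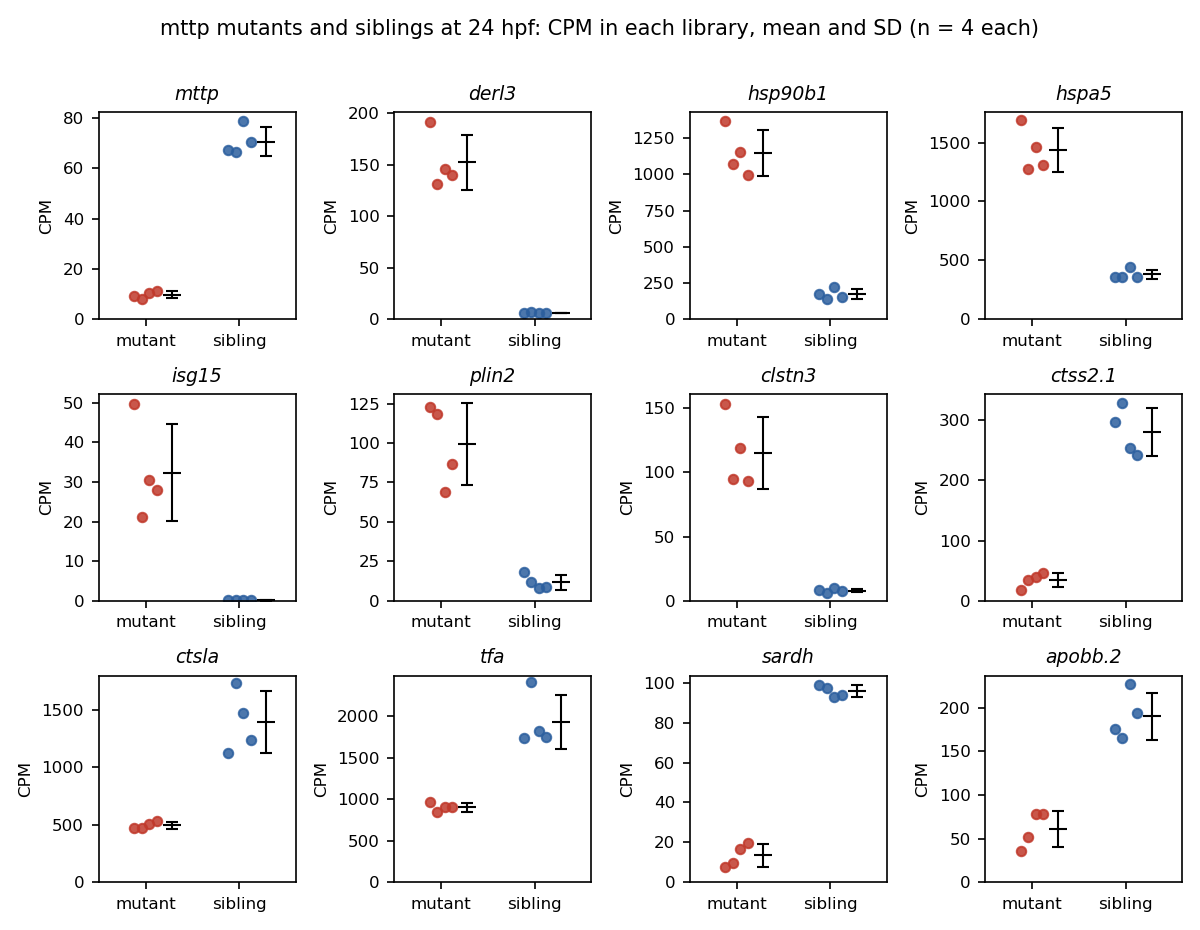
CPM of 12 genes in each library at 24 hpf, with mutants (red, n = 4) left of siblings (blue, n = 4) and the mean with its SD as a black bar; each y axis starts at 0. The 4 mutant points lie apart from the 4 sibling points in every panel: above them for derl3, hsp90b1, hspa5, isg15, plin2 and clstn3, and below them for mttp, ctss2.1, ctsla, tfa, sardh and apobb.2.

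ER-associated degradation pulls misfolded proteins out of the ER for the proteasome. Of its 27 members tested, 10 were higher and none lower (median 0.22); the replicate block and DESeq2 each called 1 lower. derl3, a channel component whose RNA was scarce in siblings, had the smallest p of all genes tested. It measured 192, 132, 146 and 139.9 CPM in mutants, against 5.50, 6.35, 6.11 and 5.42 CPM in siblings (log2 fold change 4.70 ± 0.13, adjusted p = 1.34e-09), a 26-fold difference. herpud1, an organizer of the degradation complex, measured 128, 133, 108 and 120.2 CPM in mutants, against 32.1, 25, 30.5 and 35.2 CPM in siblings (log2 fold change 1.99 ± 0.11, adjusted p = 3.42e-07). The ligase adaptor sel1l changed by 1.44 ± 0.082, the mannosidase-like gene edem1 by 1.35 ± 0.085, the lectin os9 by 1.45 ± 0.11 and the ubiquitin ligase syvn1, named after its value was seen, by 1.02 ± 0.10.

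Of the 23 regulators of the unfolded protein response tested, 11 were higher and none lower (median 0.42). The sensor kinase gene eif2ak3 measured 88.5, 78.4, 74.3 and 73.9 CPM in mutants, against 45.2, 39.9, 41.5 and 38.3 CPM in siblings (log2 fold change 0.93 ± 0.085, adjusted p = 2.17e-05), and ddit3, which encodes the transcription factor Chop, 33.4, 38.9, 35.5 and 40.3 CPM in mutants, against 18.7, 20.5, 15.14 and 13.9 CPM in siblings (log2 fold change 1.12 ± 0.13, adjusted p = 1.48e-04). The 4 mutant values of each lay above all sibling values. atf5a and sesn2, known targets of the Perk branch, changed by 1.11 ± 0.11 and 1.1 ± 0.12, and creb3l3a, an ER-bound transcription factor that drives apolipoprotein genes, by 0.90 ± 0.12. Named after their values were seen, the sensor atf6 rose by 0.77, the transcription factor atf3 by 1.12 and the pseudokinase gene trib3 by 0.42; the call of trib3 was lost without any mutant library or without sibling 3 or 4. A separate list of Atf4 targets and tRNA synthetases, which raise amino acid supply, held few calls, with a median of 0.033. Of its 42 genes 2 were higher (pycr1a at 1.09 and psat1 at 0.62, both of amino acid synthesis). Also, 2 were lower (the transporter subunit slc3a2a at -1.28 and the folate enzyme mthfd1l at -0.68). The genes atf5a, sesn2, ddit3, atf3 and trib3, called higher above, were not in this list. Its count therefore does not cover every target of the Perk branch. The shares called were 4.76% each way, against 2.28% higher and 3.85% lower over all genes tested. With the replicate block this list held 7 higher and 2 lower, and without sibling 2 it held 5 and 2.

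Of the entry and exit steps of the secretory route, a few genes moved. Among translocation and glycosylation genes 4 of 37 were higher and none lower (median 0.036), namely the mannosyltransferase alg2 at 0.76 ± 0.11, the ER nucleotide transporter slc35b1 at 0.86 ± 0.12, gfpt1 of hexosamine synthesis at 0.47 ± 0.12 and the translocon subunit sec61a1 at 0.25 ± 0.064; the calls of gfpt1 and sec61a1 were lost without mutant 1, 2 or 4 or without sibling 3 or 4, among others. In COPI and COPII transport 7 of 47 were higher and 1 lower (median 0.053). sec22ba, a SNARE of ER-to-Golgi vesicles, measured 53.9, 55.6, 49.3 and 48.8 CPM in mutants, against 24.5, 23.5, 18.3 and 22.8 CPM in siblings (log2 fold change 1.22 ± 0.10, adjusted p = 1.09e-05). The paralogous GTPase genes arf4b and arf4a changed by 3.08 ± 0.31 and 0.70 ± 0.095, and the cargo receptor pair mcfd2 and lman1 by 0.75 ± 0.15 and 0.40 ± 0.095. How reads shared by near-identical genes were counted is not given in the sources used here, so the split between arf4a and arf4b is uncertain. The lower member was the cargo receptor lman2 at -0.48, named after its value was seen. lman1 lost its call without mutant 1, mutant 3 or sibling 3, and lman2 without any mutant or without sibling 3. This list held 4 higher and 0 lower without mutant 1 or sibling 3, and 12 higher and 2 lower with the replicate block.

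**Figure D3:**
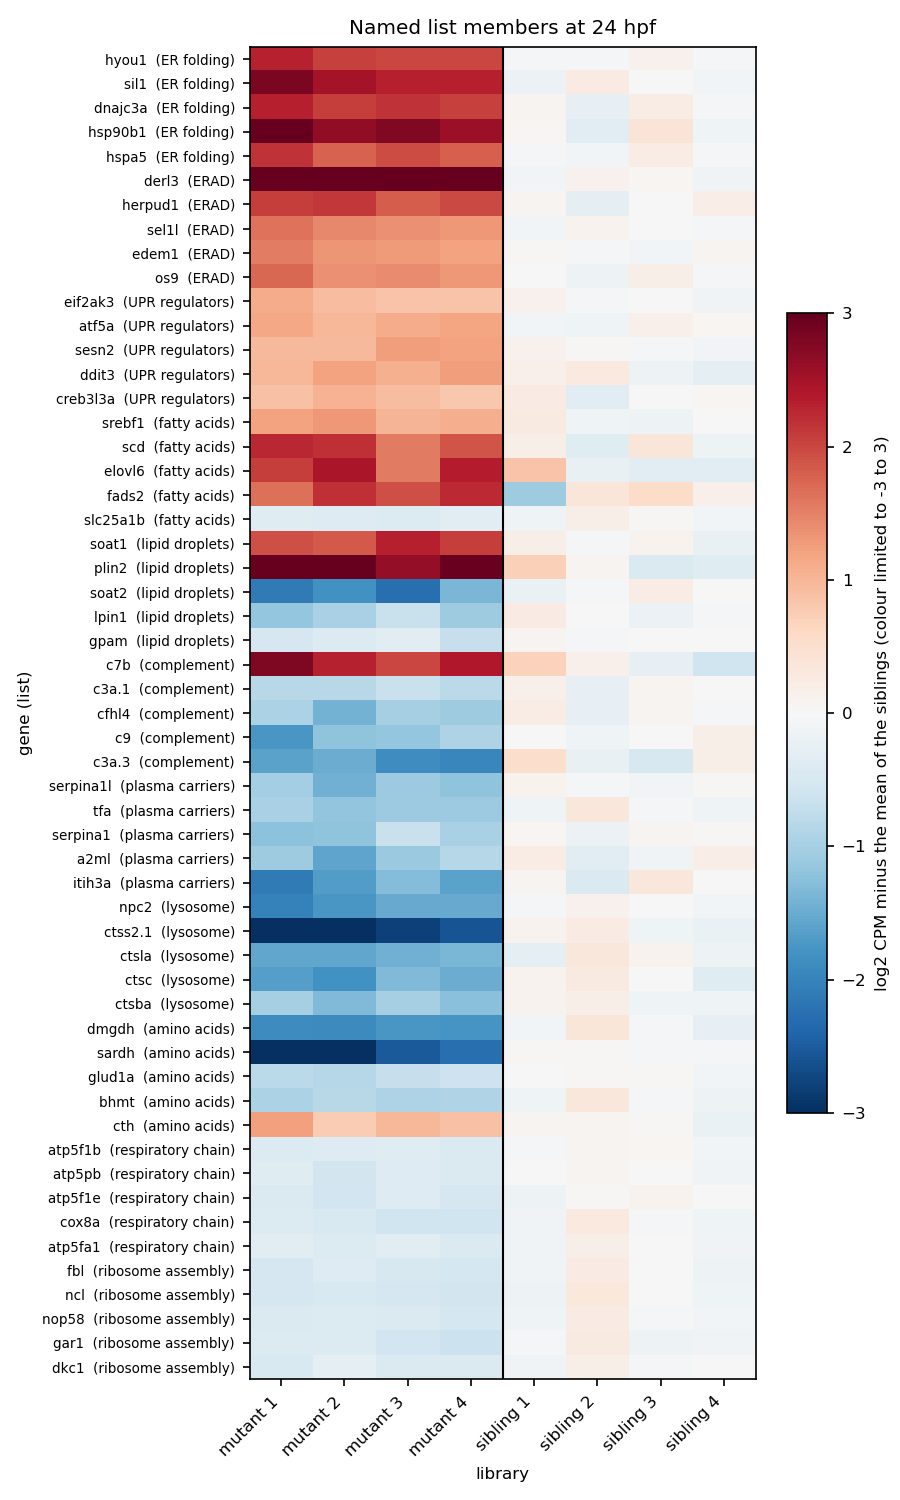
Log2 CPM minus the mean of the siblings, as colour, for 55 named list members (rows, with the list in brackets) in 4 mutant libraries on the left and 4 sibling libraries on the right; red is higher and blue lower, with the scale limited to -3 to 3. The ER rows are red and the lysosome and plasma carrier rows blue in all 4 mutants. These rows were picked as called members with the smallest p in these same libraries, so their uniform colour is a description only. Not among the rows are 4 lower ER folding genes, 3 higher lysosome and autophagy genes and 2 higher members of the list of plasma carriers and antiproteases. The respiratory chain and ribosome rows differ from the siblings by less than 1.

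Mutant libraries did not carry these changes equally. Over the 29 folding and degradation genes called higher, the median log2 difference from the sibling mean was 1.48, 1.34, 1.15 and 1.18 in mutants 1 to 4, and mutant 1 was the highest library for 22 of the 29. The order differed among the falls described below: mutant 2 was lowest for 16 of 27 plasma protein genes and 7 of 11 lysosomal genes, and mutant 4 for 16 of 26 respiratory chain genes and 12 of 18 ribosome biogenesis genes. These genes were called with the same libraries, so the counts are a description only.

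Outside the ER, the largest rises included interferon genes and genes of several other functions. isg15, a ubiquitin-like protein induced by interferon, measured 49.7, 21.3, 30.4 and 27.9 CPM in mutants, against 0.127, 0.0583, 0.0614 and 0.244 CPM in siblings (log2 fold change 8.01 ± 0.38, adjusted p = 1.53e-07). Mutant 1 was highest and every sibling was near 0. Of the 26 interferon and antigen presentation genes tested, isg15 among them, 3 were higher and none lower (median 0.19): besides isg15 they were the transcription factors irf3 at 2.92 ± 0.31 and irf1b at 2.15 ± 0.49. The irf1b groups overlapped, and its call was lost with limma-voom or without mutant 1, 3 or 4 or sibling 3 or 4. clstn3, which encodes a calsyntenin adhesion protein, measured 154, 94.4, 119 and 93.4 CPM in mutants, against 7.97, 6.30, 9.73 and 7.43 CPM in siblings (log2 fold change 3.87 ± 0.18, adjusted p = 1.37e-07). trpc2a, a cation channel gene, rose by 3.64; the transporter gene abcc12 by 3.58; ush1c, a scaffold of microvilli and stereocilia, by 4.16; and a gene listed as ARF5 (1 of many) by 3.51. The cytokine gene tnfb had a mean of 5.05 ± 4.81 CPM in mutants and 0.260 ± 0.0634 CPM in siblings (SD, n = 4 each), with a change of 4.26 ± 0.78 that limma-voom did not call. igfn1.2 held 0 counts in the 4 siblings and 12 to 38 in each mutant, 89 in all, which is at least 28.2-fold higher if 3 counts over the sibling group are taken as the floor.

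Phospholipid enzymes included 2 of the steepest rises. tmem86b, a lysoplasmalogenase that cleaves the lyso forms of plasmalogen lipids, measured 3.43, 3.57, 4.31 and 7.38 CPM in mutants, against 0.316, 0, 0 and 0.0609 CPM in siblings (log2 fold change 5.61 ± 0.69, adjusted p = 2.97e-04). pmt, a phosphoethanolamine methyltransferase that makes phosphocholine, measured 52.9, 41.0, 37.8 and 34.0 CPM in mutants, against 2.28, 1.87, 3.59 and 2.5 CPM in siblings (log2 fold change 4.02 ± 0.20, adjusted p = 2.04e-07). Siblings were near 0 for tmem86b and low for pmt. tmem189, which makes plasmalogens, changed by 0.56 ± 0.090. The phospholipases plbd1 and pla2g15 changed by -1.01 ± 0.088 and -0.71 ± 0.10, and the acyltransferase gene lpcat2, named after its value was seen and not called without mutant 1, 2 or 3 or sibling 2 or 3, by -0.68 ± 0.16. Over the 39 genes of the list 6 were higher and 3 lower, with a median of -0.030 that turned positive with no composition factor and without mutant 2 or sibling 4.

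Lipid storage and synthesis moved member by member. plin2, the main coat protein of lipid droplets, measured 123, 118, 68.7 and 86.5 CPM in mutants, against 18.2, 11.8, 8.23 and 8.59 CPM in siblings (log2 fold change 3.08 ± 0.25, adjusted p = 1.02e-05). The cholesterol acyltransferase genes soat1 and soat2, whose products esterify cholesterol, went opposite ways: soat1 measured 26, 24.4, 34.0 and 28.8 CPM in mutants, against 7.65, 6.5, 7.34 and 5.85 CPM in siblings (log2 fold change 2.05 ± 0.13, adjusted p = 1.59e-06), and soat2, the form known from liver and intestine in mammals, 4.31, 5.39, 3.95 and 7.29 CPM in mutants, against 16.4, 18.6, 22.0 and 18.9 CPM in siblings (log2 fold change -1.86 ± 0.18, adjusted p = 4.56e-05). lpin1 and gpam, which act in triglyceride synthesis, changed by -0.97 ± 0.17 and -0.48 ± 0.099. The droplet and lipolysis list held 4 higher and 4 lower of 32 (median 0.061); the remaining called members, named after their values were seen, were mogat3b at 0.70, lipea at 0.69 and lipf at -0.47. lipea lost its call without any library but sibling 1, lipf without mutant 1 or 3 or sibling 3, and gpam without mutant 4.

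Fatty acid synthesis had 6 of 33 members higher and 1 lower (median 0.18). srebf1, the transcription factor of this pathway, measured 202, 216, 177 and 188 CPM in mutants, against 106, 80.2, 78.8 and 88.6 CPM in siblings (log2 fold change 1.15 ± 0.10, adjusted p = 1.83e-05). The elongase gene elovl6 measured 85.3, 112, 60.1 and 104 CPM in mutants, against 36.9, 17.5, 16.2 and 16.3 CPM in siblings (log2 fold change 2.06 ± 0.27, adjusted p = 4.51e-04), with sibling 1 above the other siblings and still below every mutant. The desaturase genes scd and fads2 changed by 1.97 ± 0.22 and 1.90 ± 0.30, while the citrate carrier gene slc25a1b was lower at -0.38 ± 0.075. mlxipl and acsl3b, named after their values were seen, were higher at 1.19 and 0.41. acsl3b lost its call without mutant 1, mutant 4 or sibling 3, and mlxipl without any mutant, without sibling 3 or in the fit of all 14 libraries. In cholesterol synthesis 7 of 29 were higher and 3 lower (median 0.29). hmgcra, the rate-limiting reductase, measured 8.55, 6.21, 9.92 and 10.5 CPM in mutants, against 2.15, 2.04, 3.32 and 1.4 CPM in siblings (log2 fold change 1.98 ± 0.26, adjusted p = 4.88e-04). hmgcs1, the synthase before it, and srebf2, the regulator, changed by 0.58 ± 0.098 and 0.39 ± 0.069, and insig1, the sterol-sensing brake, by 0.72 ± 0.14. acat2 and fdps, enzymes of the same route, were lower at -0.41 ± 0.076 and -0.46 ± 0.097. insig1 and fdps were named after their values were seen, fdps lost its call without mutant 2 or 4, and without mutant 3, mutant 4 or sibling 1 the higher count was 4.

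Fatty acid oxidation and Ppar targets leaned the other way, with 1 of 45 higher and 8 lower (median -0.13). The higher share, 2.22%, was close to the 2.28% of all genes tested, and the lower share was 17.8% against 3.85%. acsl1b, which activates fatty acids, measured 85.3, 80.5, 111 and 102 CPM in mutants, against 204, 213, 199 and 191 CPM in siblings (log2 fold change -1.09 ± 0.098, adjusted p = 2.03e-05). The thioesterase gene acot17 changed by -2.52 ± 0.38, the carnitine transferase cpt1ab by -0.63 ± 0.10, hadhab of the trifunctional protein by -0.39 ± 0.068, and the electron carrier etfb by -0.45 ± 0.088. The higher member, cpt1cb at 0.60, was named after its value was seen and was not called without mutant 3 or 4; without mutant 4 the list held 5 lower, and with the replicate block 2 higher and 11 lower. Uptake and transport of lipid held 4 higher and 7 lower of 37, or 8 and 7 with the replicate block. npc2, which carries cholesterol out of lysosomes, measured 65.7, 79.5, 93.6 and 94.1 CPM in mutants, against 258, 294, 266 and 254 CPM in siblings (log2 fold change -1.69 ± 0.11, adjusted p = 1.50e-06). The fatty acid transporter slc27a2a and the fatty acid binding protein fabp2 were lower at -0.52 ± 0.073 and -0.53 ± 0.075, and scarb1, the high-density lipoprotein receptor, at -0.86 ± 0.16. The receptor gene lrp1aa was higher at 0.96 ± 0.080, scarb2a at 0.36 ± 0.066, slc27a1b at 1.43 ± 0.29 and mfsd2ab at 0.30 ± 0.080. scarb1, slc27a1b and mfsd2ab were named after their values were seen, and mfsd2ab kept its call only without sibling 1 among the libraries left out.

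Of 18 apolipoprotein genes tested, 8 were lower and none higher (median -0.29). With the replicate block 9 were lower and 1 higher, and without sibling 2 the counts were 8 and 1. Among the apolipoprotein B genes, whose products Mttp loads, apobb.2 measured 36.2, 51.9, 77.9 and 78.2 CPM in mutants, against 175, 166, 227 and 193 CPM in siblings (log2 fold change -1.64 ± 0.20, adjusted p = 3.39e-04) and apoba 629, 658, 874 and 822 CPM in mutants, against 1388, 954, 1384 and 1273 CPM in siblings (log2 fold change -0.74 ± 0.13, adjusted p = 0.00471). Neither pair of groups overlapped. apobb.1 measured 7717, 5964, 8193 and 6582 CPM in mutants, against 10003, 7599.9, 9291 and 8067 CPM in siblings (log2 fold change -0.30 ± 0.11, adjusted p = 0.140), with overlapping groups, and was called with the replicate block (adjusted p = 0.00377). Each mutant lay below its same-numbered sibling for apobb.1. Reads shared by apobb.1 and apobb.2 may have been counted for either. apoc2, the activator of lipoprotein lipase, changed by -1.16 ± 0.10, apoc1 by -0.74 ± 0.094 and apom by -0.79 ± 0.094. apoeb, apoa1b and apoa2 changed by -0.32 ± 0.072, -0.37 ± 0.089 and -0.29 ± 0.071, and each lost its call when 1 of several libraries was left out, mutants 2 and 4 in each case; apoa1b and apoa2 also lost theirs with no composition factor. apoa4b.1 and apoea were not called, at log2 fold change -0.15 ± 0.078, adjusted p = 0.331 and log2 fold change -0.17 ± 0.17, adjusted p = 0.651. The lower count was 5 without mutant 2 or mutant 4.

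Among partners of lipoprotein assembly and remodelling 4 of 17 were higher and 3 lower. pla2g12b, which promotes lipoprotein expansion in the ER, measured 293, 326, 339.8 and 328 CPM in mutants, against 425, 502, 452 and 411 CPM in siblings (log2 fold change -0.48 ± 0.079, adjusted p = 0.00303). angptl4, an inhibitor of lipoprotein lipase, was lower at -0.93 ± 0.17, and the lipase gene lpl itself, named after its value was seen, higher at 0.56 ± 0.12. The phospholipid transfer protein gene pltp was higher at 0.60 ± 0.11, as was zgc:85843 at 0.89 ± 0.18, and cetp, the cholesteryl ester transfer protein gene named after its value was seen, was lower at -0.82 ± 0.19; cetp lost its call without mutant 1, 2 or 4 or sibling 4.

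hnf4a, hnf4b and hnf1ba, which encode transcription factors of the yolk syncytial layer and liver, were not called. hnf4a measured 2.72, 6.88, 4.75 and 3.61 CPM in mutants, against 5.79, 9.33, 7.18 and 7.49 CPM in siblings (log2 fold change -0.73 ± 0.26, adjusted p = 0.126), with overlapping groups. Each mutant lay below its same-numbered sibling for hnf4a. The gene was called with DESeq2, with the replicate block (adjusted p = 0.00998) and without mutant 2. hnf4b measured 19.6 ± 2.39 CPM in mutants and 20.4 ± 2.02 CPM in siblings (SD, n = 4 each; log2 fold change -0.055 ± 0.11, adjusted p = 0.850). hnf1ba stood at log2 fold change 0.30 ± 0.11, adjusted p = 0.137. In the list of endoderm and liver transcription factors 2 of 22 were higher, gata6 at 0.41 ± 0.089 and foxa3 at 0.44 ± 0.12, and 1 was lower. That was nr0b2a, the bile-acid induced repressor Shp, with 27.8, 27.8, 31.9 and 33.1 CPM in mutants, against 77.0, 103, 96.8 and 95.3 CPM in siblings (log2 fold change -1.62 ± 0.10, adjusted p = 1.14e-06). gata6 and foxa3 lost their calls without mutant 1, mutant 2 or sibling 3, foxa3 also without mutant 4 or sibling 1 or 2, and with the replicate block the list held 4 higher and 3 lower.

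Most plasma protein genes were lower or not called, but some were higher. The higher share was 7.41% for carriers and antiproteases, 4.55% for coagulation and 9.38% for complement, against 2.28% of all genes tested. Of the carriers and antiproteases 9 of 27 were lower and 2 higher (median -0.23), and the lower count was 9 without any 1 library. tfa, the iron carrier transferrin, measured 968, 842, 902 and 904 CPM in mutants, against 1734, 2408, 1825 and 1749.5 CPM in siblings (log2 fold change -1.09 ± 0.10, adjusted p = 2.78e-05). serpina1l and serpina1, of the antitrypsin family, changed by -1.18 ± 0.093 and -1.0 ± 0.12, a2ml, an alpha-2-macroglobulin-like antiprotease, by -1.15 ± 0.15, itih3a by -1.66 ± 0.22 and the adhesive protein gene vtna by -2.28 ± 0.43. The higher members, named after their values were seen, were agt, the angiotensin precursor, at 3.24 ± 0.59, which limma-voom did not call, and tfr2, a transferrin receptor, at 1.41 ± 0.23. In coagulation 8 of 22 were lower and 1 higher (median -0.29). Antithrombin (serpinc1), plasminogen (plg), antiplasmin (serpinf2b) and prothrombin (f2) changed by -0.67 ± 0.091, -0.61 ± 0.075, -0.68 ± 0.074 and -0.57 ± 0.10. The fibrinogen genes fga, fgb and fgg, named after their values were seen, fell together by 0.70, 0.63 and 0.48. f9b, a factor IX gene, went the other way with 12.1, 18.1, 9.56 and 16.4 CPM in mutants, against 5.88, 3.82, 5.74 and 5.88 CPM in siblings (log2 fold change 1.4 ± 0.21, adjusted p = 0.00155).

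Complement showed the same split, 10 of 32 lower and 3 higher (median -0.41). The terminal component gene c9 measured 30.0, 43.5, 44.8 and 53 CPM in mutants, against 98.8, 91.3, 99.8 and 113 CPM in siblings (log2 fold change -1.23 ± 0.14, adjusted p = 1.52e-04), while c7b, another terminal component, measured 82.8, 58.5, 47.7 and 63.0 CPM in mutants, against 19.1, 13.2, 9.95 and 7.89 CPM in siblings (log2 fold change 2.33 ± 0.24, adjusted p = 6.83e-05). No mutant library overlapped the siblings for either. The central components c3a.1 and c3a.3 changed by -0.79 ± 0.085 and -1.77 ± 0.24, and the factor H family genes cfhl4, cfhl1 and cfh, the last named after its value was seen, by -1.11 ± 0.12, -2.29 ± 0.33 and -1.79 ± 0.28. The c3a genes are close copies and their split is uncertain. The other higher members, c3a.6 at 0.52 and c6 at 0.41, were named after their values were seen and lost their calls without mutant 1 or mutant 3, and c6 also without mutant 4 or sibling 1, 3 or 4. Of 14 markers of the yolk syncytial layer, several of which are also in the lists above, 9 were lower and 2 higher (median -0.68). The higher were creb3l3a and gata6. The summed level of these markers ran from 10553 to 13251 CPM in mutants, against 15445 to 17985 CPM in siblings, and none of the markers tested was at 0; their part in the falls of plasma and apolipoprotein genes was not tested. afp4 and rbp4, a retinol carrier, changed by -0.58 ± 0.081 and -1.49 ± 0.25, and the iron exporter slc40a1, named after its value was seen, by -0.64 ± 0.11.

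Lysosomal proteases had some of the steepest falls. ctss2.1, a cathepsin S gene, measured 17.7, 34.0, 40.0 and 45.9 CPM in mutants, against 297, 328, 254 and 243 CPM in siblings (log2 fold change -3.03 ± 0.23, adjusted p = 5.34e-06). ctsla, a cathepsin L gene, measured 469, 469, 508 and 534 CPM in mutants, against 1128, 1732, 1474 and 1241 CPM in siblings (log2 fold change -1.49 ± 0.12, adjusted p = 6.71e-06). Cathepsin genes ctsc and ctsba changed by -1.58 ± 0.13 and -1.14 ± 0.099, and psap, the saposin precursor, by -0.82 ± 0.13. The lysosome and autophagy list held 11 lower and 3 higher of 46, with a median of -0.028. Without a composition factor it held 8 lower and 9 higher, and its median, close to 0, turned positive then, with the filter of at least 1 CPM, and without mutant 4, sibling 2 or sibling 4. The 3 higher, named after their values were seen, were no proteases: the autophagy receptor sqstm1 measured 35.4, 18.8, 26.9 and 27.8 CPM in mutants, against 9.43, 9.06, 8.29 and 12.2 CPM in siblings (log2 fold change 1.48 ± 0.18, adjusted p = 2.74e-04), the lysosomal transcription factor tfe3a changed by 0.56 ± 0.095 and the autophagy gene atg9a by 0.63 ± 0.14, a call lost without mutant 1 or 4. With the replicate block the list held 8 higher and 11 lower, and without sibling 2 it held 5 and 10.

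**Figure D4:**
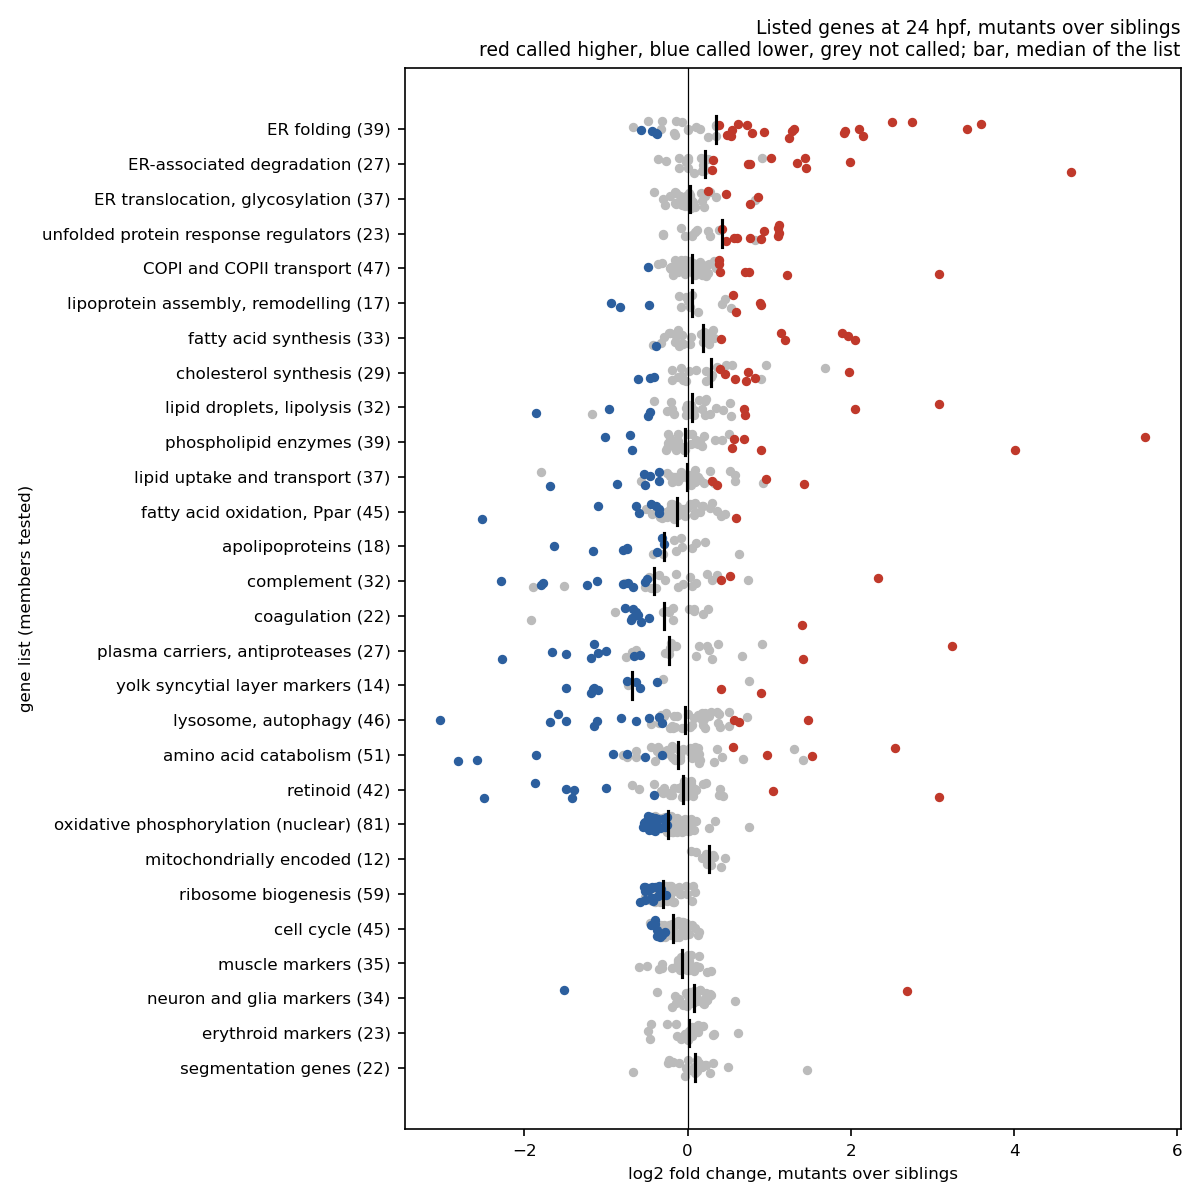
Log2 fold change of mutants over siblings for the tested members of 28 gene lists (rows, with the number tested in brackets); red points were called higher, blue lower, grey not called, and the black bar is the median. ER rows spread to the right, yolk syncytial layer and complement rows to the left, and the oxidative phosphorylation and ribosome biogenesis rows hold many small falls and no call to the right.

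Amino acid catabolism had 7 of 51 lower and 4 higher (median -0.12), or 12 and 6 with the replicate block. The lower ones included the choline and glycine route in sequence: bhmt, which uses betaine to remethylate homocysteine, measured 1338, 1438, 1360.2 and 1384 CPM in mutants, against 2337, 3253, 2477 and 2328 CPM in siblings (log2 fold change -0.91 ± 0.10, adjusted p = 1.12e-04), dmgdh, which demethylates dimethylglycine, 78.3, 77.1, 86.9 and 84.9 CPM in mutants, against 274, 376, 283 and 247 CPM in siblings (log2 fold change -1.85 ± 0.12, adjusted p = 1.14e-06), and sardh, which demethylates sarcosine, 7.90, 9.81, 16.8 and 19.9 CPM in mutants, against 98.8, 97.5, 93.0 and 93.9 CPM in siblings (log2 fold change -2.82 ± 0.23, adjusted p = 8.67e-06). dao.1, a D-amino acid oxidase gene, measured 11.6, 33.4, 29.1 and 47.5 CPM in mutants, against 154, 249, 149.8 and 174 CPM in siblings (log2 fold change -2.58 ± 0.32, adjusted p = 3.13e-04), and glud1a changed by -0.74 ± 0.072. cth, which makes cysteine, rose by 0.97. The other higher members, named after their values were seen, were kynu of tryptophan breakdown at 1.53 ± 0.24, and hal and uroc1 of histidine breakdown at 2.55 ± 0.45 and 0.56 ± 0.15; uroc1 lost its call without 6 of the 8 libraries. gatm, which makes the creatine precursor, changed by -1.06 ± 0.083.

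Bile acid and retinoid genes held further steep falls. slc10a1, the bile acid uptake carrier, measured 1.26, 1.96, 1.22 and 2.23 CPM in mutants, against 11.3, 11.9, 8.57 and 8.22 CPM in siblings (log2 fold change -2.58 ± 0.23, adjusted p = 2.17e-05). cyp1c1, a cytochrome P450 of the aryl hydrocarbon response, changed by -2.47 ± 0.26, and abcb11a, the bile salt export pump gene, by -0.90 ± 0.21, a call lost without mutant 2, mutant 4 or sibling 3. 1 of 24 in this list was higher, cyp3c1 at 0.63, and the list held 5 higher and 4 lower with the replicate block, 3 and 2 without sibling 3, and 2 and 3 without sibling 2. In the main fit 4.17% of the list was higher and 12.5% lower, against 2.28% and 3.85% of all genes tested. Among retinoid genes 7 of 42 were lower and 2 higher. The retinol binding proteins rbp4, rbp5 and rbp2a changed by -1.49 ± 0.25, -1.0 ± 0.12 and -1.39 ± 0.20, and the retinol dehydrogenase rdh5 by -2.49 ± 0.39, against 3.08 ± 0.52 for bco2a, a carotenoid oxygenase; stra6l was given above. cyp11a1, the first enzyme of steroid synthesis, had 0.409 ± 0.179 CPM in mutants and 3.5 ± 2.22 CPM in siblings (SD, n = 4 each) and a change of -3.09 ± 0.53 that limma-voom did not call. slc24a3, a cation exchanger gene, changed by -2.36 ± 0.26.

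Lists of housekeeping functions held many small falls. Of 81 nuclear genes of oxidative phosphorylation, 26 were lower and none higher (median -0.24). atp5f1b, the catalytic subunit of ATP synthase, measured 824, 830.2, 842 and 807 CPM in mutants, against 1056, 1150.2, 1126 and 1024 CPM in siblings (log2 fold change -0.40 ± 0.062, adjusted p = 0.00200), and cox8a of cytochrome oxidase changed by -0.52 ± 0.097. None of the 12 mitochondrially encoded genes was called (median 0.26); mt-cyb was higher with the replicate block. Of 59 ribosome biogenesis genes 18 were lower and none higher (median -0.31): ncl, nucleolin, measured 1255, 1296, 1249 and 1223 CPM in mutants, against 1589.6, 2216, 1753 and 1621 CPM in siblings (log2 fold change -0.52 ± 0.096, adjusted p = 0.00688), and fbl, the nucleolar methyltransferase, changed by -0.48 ± 0.087. Sibling 2 was the highest sibling for ncl. Of 45 cell cycle genes 9 were lower and none higher (median -0.18), among them the replication genes pcna at -0.41 ± 0.090 and mcm5 at -0.37 ± 0.075. These counts of lower genes fell when any 1 of several libraries was left out. For oxidative phosphorylation they were 11, 8, 6 and 8 without mutant 1, mutant 2, mutant 4 and sibling 3, and 10 with no composition factor. For ribosome biogenesis they were 10, 11 and 7 without mutant 1, 3 and 4, 10 with no composition factor and 34 with the replicate block; for the cell cycle they were 2, 4, 3, 0 and 1 without mutants 1, 2, 3, 4 and sibling 3, 4 with no composition factor and 16 with the block.

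Energy and growth genes changed in single members. Glycolysis held 6 lower and 1 higher of 38 (median -0.11). pfklb, a phosphofructokinase gene, measured 44.1, 51.0, 56.1 and 58.6 CPM in mutants, against 83.9, 95.2, 102 and 91.4 CPM in siblings (log2 fold change -0.83 ± 0.097, adjusted p = 2.04e-04), and pgam1a, a phosphoglycerate mutase gene, changed by -0.81 ± 0.12. The higher one was gck, glucokinase, at 2.60 ± 0.59, named after its value was seen. It was not called with limma-voom or without mutant 2, 3 or 4. Mutant 1 held 0.324 CPM of gck, against 2.66 to 3.05 CPM in the other mutants. Among insulin-like growth factor, fasting and Foxo genes 4 of 35 were higher and 3 lower. igfbp1a, a growth factor binding protein induced by fasting, measured 16.9, 12.3, 19.4 and 13.8 CPM in mutants, against 7.27, 5.19, 7.06 and 5.91 CPM in siblings (log2 fold change 1.29 ± 0.17, adjusted p = 4.79e-04). The gluconeogenic genes fbp1b and pck2 were lower at -2.1 ± 0.15 and -0.93 ± 0.12, and igfbp2a at -0.60 ± 0.091. foxo4, foxo1a and irs2b, which act in insulin signalling, were higher at 0.59 ± 0.12, 0.49 ± 0.12 and 0.38 ± 0.094; the last pair was named after its values were seen, and all 3 lost their calls without mutant 4. This list held 1 higher without mutant 4, 2 without mutant 1 or 3, and 7 with the replicate block.

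Stress lists other than those of the ER were called in part. Of 32 antioxidant genes 6 were lower, such as gpx4a, which reduces lipid peroxides, at -0.82 ± 0.12 and txn, thioredoxin, at -0.68 ± 0.11, and 1 higher, gss of glutathione synthesis, at 0.78 ± 0.14. Of 25 cytosolic and mitochondrial heat shock genes none was higher and 2 lower, hspa4a at -0.53 ± 0.081 and hspd1 at -0.58 ± 0.11. The lower share was 8%, against 3.85% of all genes tested, of which 2.28% were higher. Among 19 p53 targets sesn1 was higher at 0.58 ± 0.11 and rrm2b lower at -0.60 ± 0.093 (5.26% each way), and the replicate block gave 3 higher and 1 lower.

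Genes were ranked by change in mean CPM, scaled with TMM factors. The ranking took only called genes with non-overlapping groups, an average log2 CPM of at least 1 and no clone name. Among these the gains were again led by the ER. The 8 ranked genes with the largest gain in mean CPM were hspa5, hsp90b1, hyou1, calr3b, pdia4, pdia6, derl3 and the keratin gene krt18a.1, which changed by 0.49 ± 0.096. Those with the largest loss were bhmt, tfa, ctsla, gatm, psap, apoa1b, afp4 and the keratin gene cyt1, at -0.39 ± 0.073. Uncalled genes such as apobb.1, whose mean was also lower in mutants, were outside the ranking. In sum, genes called higher changed by 10646 CPM and genes called lower by -41249.9 CPM. Both sums depend on the TMM factors. With no composition factor the calls turned to 803 higher and 498 lower, and the sums were not taken for that scaling.

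Few marker genes of other tissues were called. Over 14 lists of such markers, 285 distinct genes tested, 1 was higher and 4 were lower, 1.75% against 6.13% of all genes tested, and the list medians lay between -0.086 and 0.23. None was called among myeloid, erythroid, endothelial, muscle, cardiac, segmentation, pigment, lens, hatching gland or notochord and cartilage markers. The called ones were the neurofilament genes nefma, with 36.2, 14.5, 33.7 and 30.5 CPM in mutants, against 4.11, 2.62, 6.14 and 4.93 CPM in siblings (log2 fold change 2.69 ± 0.29, adjusted p = 1.05e-04), and its paralog nefmb, with 8.94, 7.50, 13.2 and 9.39 CPM in mutants, against 22.5, 34.2, 28.3 and 26.8 CPM in siblings (log2 fold change -1.51 ± 0.17, adjusted p = 1.65e-04), along with cyt1, fabp2 and the cadherin gene cdh17, at -0.35 ± 0.086, a call lost with no composition factor or without mutant 1 or 2 or sibling 3 or 4. nefma and nefmb lay on opposite sides of the siblings without overlap. With the replicate block no such list had more than 3 members higher or 3 lower.

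At 48 hpf, in a fit of that stage's 6 libraries, 615 of 22950 genes (2.68%) were higher and 294 (1.28%) lower. Of the genes higher at 24 hpf, 168 were also higher at 48 hpf, which is 33.2% of the earlier and 27.3% of the later list. Of the lower ones 54 were lower again, 6.33% of the earlier and 18.4% of the later list, and 36 genes were called in opposite directions. The difference of the mutant effect, 48 minus 24 hpf, was tested over all 14 libraries and called for 774 of 24424 genes (3.17%). Among genes called at 24 hpf it was called for 305: of the higher ones it was positive for 29 and negative for 55, and of the lower ones positive for 216 and negative for 5. The genes were picked by their 24 hpf call, which favours a difference toward 0, and batch and stage cannot be told apart.

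**Figure D5:**
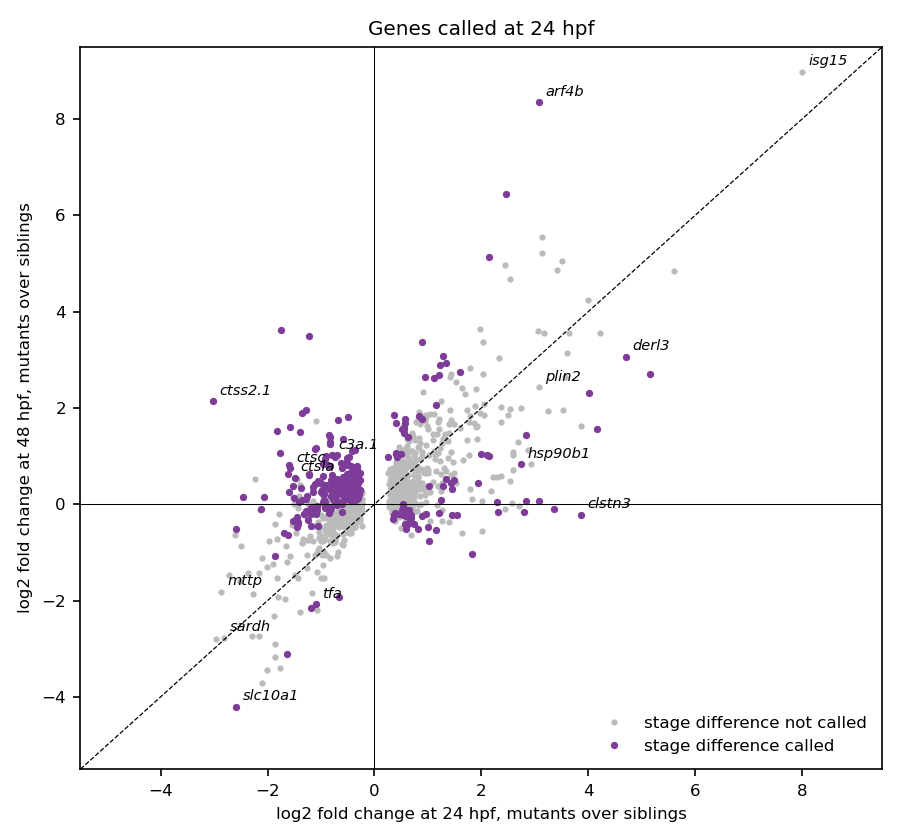
Log2 fold change of mutants over siblings at 48 hpf (y axis) against that at 24 hpf (x axis) for the 1346 genes called at 24 hpf and tested at both stages; purple points are the 303 whose difference between stages was called, and the dashed line marks equal effects. isg15 lies near the line, clstn3 and ctss2.1 far below and above it, and many of the lower genes of 24 hpf lie at or above 0 at 48 hpf.

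The difference was called for 11 of the 23 called ER folding and degradation genes named above, and each of the 11 had a smaller effect of the same sign at 48 hpf. It was not called for hspa5 (difference -0.55, adjusted p = 0.0616), sil1, dnajb9b, pdia6, calr3b, creld2, fep15 or syvn1. Nor was it called for the lower members fkbp9, dnajc10, selenof and zgc:77086. The effect on hsp90b1 was 2.75 at 24 hpf and 0.84 at 48 hpf (difference -1.89 ± 0.22, adjusted p = 9.21e-05), that on derl3 4.70 and 3.07 (difference -1.61 ± 0.20, adjusted p = 1.78e-04), and that on sel1l 1.44 and 0.45 (difference -0.97 ± 0.15, adjusted p = 0.00135). ddit3 did the reverse, with 1.12 at 24 hpf and 2.62 at 48 hpf (difference 1.52 ± 0.22, adjusted p = 6.33e-04), and so did arf4b, with 3.08 and 8.35 (difference 5.29 ± 0.65, adjusted p = 1.79e-04). clstn3 did not show its rise at 48 hpf, with -0.22 at 48 hpf (difference -4.07 ± 0.24, adjusted p = 2.24e-07). Of the lysosomal genes named above as lower, 6 had a called difference, positive in each, and 5 of these lay above 0 at the later stage: ctss2.1 stood at 2.14 at 48 hpf (difference 5.20 ± 0.38, adjusted p = 1.98e-06), ctsc at 0.75 (difference 2.36 ± 0.20, adjusted p = 5.22e-06), ctsba at 0.36 (difference 1.52 ± 0.16, adjusted p = 5.64e-05), ctsla at 0.56 (difference 2.07 ± 0.39, adjusted p = 0.00609) and psap at 0.32 (difference 1.16 ± 0.28, adjusted p = 0.0281). tfa, serpina1l and apobb.2 were lower still, at -2.08, -2.15 and -3.11 at 48 hpf (difference -0.96 ± 0.22, adjusted p = 0.0216; difference -0.94 ± 0.24, adjusted p = 0.0414; difference -1.45 ± 0.30, adjusted p = 0.0128). The call of the difference was lost for apobb.2 without mutant 1 of 48 hpf, for tfa without sibling 2, mutant 2 or mutant 3 of 48 hpf, for serpina1l without any of 11 libraries and for psap without any of 7. For isg15, plin2 and sardh the difference was not called, with 1.00 ± 0.99, adjusted p = 0.722, -0.62 ± 0.42, adjusted p = 0.534 and 0.067 ± 0.31, adjusted p = 0.955.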

How the data were processed

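RNA of whole zebrafish embryos was sequenced after TRIzol extraction and library preparation with the NEBNext Ultra RNA kit, per the labels. The authors deposited 1 table of whole-number read counts by gene, without normalization. The submitters' processing notes list the build GRCz11 and the tools STAR 2.7.10b, featureCounts 2.0.6, Trim Galore 0.6.10 and FastQC 0.12.1. Gene models, strandedness and the handling of multi-mapping reads: not given in the sources used here. Counts of close paralogs and of overlapping genes are therefore uncertain.

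The 8 libraries of 24 hpf were fitted with edgeR 4.0.16 in R 4.3.3 (glmQLFit and glmQLFTest on raw counts, TMM factors, filterByExpr with a minimum count of 10, no covariate, 6 residual degrees of freedom, Benjamini-Hochberg over all genes tested). The common dispersion was 0.0399. The difference between stages was an interaction contrast over 14 libraries, and the effect at 48 hpf came from a fit of that stage alone. No 2 libraries agreed within sampling noise. Same-numbered mutants and siblings deviated together (r = 0.379, 0.288, 0.293 and 0.113 across genes for numbers 1 to 4, against -0.21 to 0.055 for different numbers). The labels do not say what a number stands for. Libraries were paired by number only in the replicate block, an alternative. Every p-value given without mention of the block comes from a test that ignored this pairing. On simulated counts for the 24 hpf comparison (22163 genes, 200 changed) the fit recovered 41.8%, 62.7% and 81.8% of genes changed 1.5-, 2- and 4-fold, and made 136 calls, 12 of them on genes simulated without a change. Those 12 are a larger share of the calls than the adjusted p cut-off of 0.05 aims at.

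The lists and the naming rule were chosen with earlier results of these data known. Of 1578 listed names, 35 were matched by a RefSeq synonym (assembly GRCz12tu, used for names and gene order only) and 68 were not matched. The rule named mttp, 15 fixed genes of the lipoprotein axis, the 12 genes each with the greatest rise and fall and the 8 each with the largest gain and loss in CPM (called, non-overlapping, average log2 CPM of at least 1, not a clone name), genes with 0 counts in all libraries of 1 group and at least 10 in each of the other, and up to 5 called members of each list by p. Exceptions are marked where they appear, and a few genes the rule named are not reported here. Alternatives were DESeq2 1.42.0, limma-voom (limma 3.58.1), other scalings and filters, a test against 1.5-fold, all 14 libraries, the replicate block and leaving out each library. The floor of 3 counts covers counting error only.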

Additional observations from a re-analysis of the deposited data

Results flagged for a closer look

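In 498 groups of 4 values examined (named genes and library measures), 20 held 1 library whose gap to the others passed Dixon's 95% critical value for 4 values. Chance flags about 1 group in 20. Sibling 2 was the library in 9 of them. It was high at 2408 CPM for tfa (others 1734 to 1825), 3253 CPM for bhmt (2328 to 2477), 17.6 CPM for cyp3c1 (15.0 to 15.4), 1.98 CPM for irf3 (0.737 to 0.949) and 111 CPM for cox8a (83.3 to 86.8), and low at 12.8 CPM for hnf1ba, 3.82 CPM for f9b, 242 CPM for serpina1 and 61.6 CPM for psat1. Sibling 3 was high at 438 CPM for hspa5 and 91.7 CPM for angptl4 and low at 2.39 CPM for lim2.1. Sibling 1 was high at 36.9 CPM for elovl6 and low at 44.8 CPM for tyms. Among mutants, mutant 1 was high at 541 CPM for hyou1 (others 441 to 453) and low at 0.324 CPM for gck (others 2.66 to 3.05), mutant 2 low at 1911 CPM for apoa1b and high at 229 CPM for dkc1, and mutant 3 high at 942.0 CPM for apoa2 and 0.701 CPM for timd4.

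For 81 named genes the mutant effect differed between stages in the edgeR interaction test (48 minus 24 hpf, log2 scale, adjusted p under 0.05); 52 of them passed whichever library was left out, and 79 with the replicate block. Most of these genes were picked by their call at 24 hpf. In the ER the difference was negative for hsp90b1 (-1.89), hyou1 (-1.06), pdia4 (-1.47), dnajc3a (-1.13), manf (-0.88), sdf2l1 (-1.14), derl3 (-1.61), herpud1 (-0.92), sel1l (-0.97), edem1 (-0.79) and os9 (-1.11), and positive for ddit3 (1.52), sec22ba (1.69) and arf4b (5.29). It was also negative for clstn3 (-4.07), pmt (-1.69), ush1c (-2.57), lrp1aa (-1.15), bco2a (-2.99) and foxo4 (-1.08). For igfn1.2, with 0 counts in the siblings of 24 hpf, the fitted difference of -7.44 depends on the prior count and gives no size, and its call was lost with the replicate block and without any of 12 libraries.

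Among lipoprotein and lipid genes it was negative for apobb.2 (-1.45) and positive for pla2g12b (0.98), apoeb (1.13), apoc2 (1.06), apom (1.41), hnf4b (1.03), zgc:85843 (2.51), srebf1 (0.94), slc25a1b (0.76), fdps (1.13), lpin1 (1.22), acsl1b (0.90), cpt1ab (0.67), npc2 (1.11), fabp2 (1.41), scarb1 (1.71), lpl (1.03), pla2g15 (0.99) and pla2g12a (1.12). Plasma protein genes gave -0.96 for tfa and -0.94 for serpina1l, and positive differences for afp4 (1.17), c3a.1 (1.83), c3a.3 (2.86), c3a.6 (1.06), c6 (1.31), serpinf2b (1.00), f2 (0.91), fga (1.74), fgb (1.52) and fgg (1.47). Lysosomal genes were positive, with ctss2.1 (5.20), ctsla (2.07), ctsc (2.36), ctsba (1.52) and psap (1.16). The rest were slc10a1 (-1.60) and, all positive, cyp1c1 (2.63), abcb11a (1.93), dao.1 (2.09), gatm (0.62), dmgdh (0.79), glud1a (0.77), slc3a2a (1.41), psat1 (0.80), pck2 (1.89), pgam1a (1.00), hk2 (1.1), taldo1 (0.64), txn (2.46), nr0b2a (1.01), gata6 (0.66), irf1b (3.00), fbl (0.69), nop58 (0.63), gar1 (0.71), mcm5 (0.64), hspa4a (0.68), nefmb (1.19) and cdh17 (0.82).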

How the results depend on the processing

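Among the 246 genes examined under up to 18 alternatives, none of the 217 called turned direction, and hnf4b, not called, ran from -0.13 to 0.030 on the log2 scale; 91 of the 217 called kept the call under each, and 126 lost it under at least 1, most often the test against 1.5-fold. The counts higher and lower were 832 and 1324 with DESeq2, 803 and 498 with library size only, 114 and 110 when tested against 1.5-fold, and 1040 and 1540 with the replicate block, which kept every call of the fit without it. The block also moved the lists named beside it in the report, called hnf4a, apobb.1 and mt-cyb among the genes named there, and changed no other call of a gene named there. Fitting all 14 libraries gave 366 higher and 568 lower and did not call 29 of the 217, among them pla2g12b, slc25a1b, zgc:85843 and hal. Leaving out 1 library gave 288 to 560 higher and 367 to 836 lower. For mttp the log2 fold change ran from -2.94 to -2.77 over these and it was called each time. The difference between stages was called for 1183 genes with the replicate block, and for 472 to 1428 when 1 library was left out, the extremes being mutant 4 at 24 hpf and sibling 3 at 48 hpf; without mutant 1 at 48 hpf it was 487. The cause was not tested. With 4 libraries a group the simulated fit recovered 41.8% of 1.5-fold changes, so small differences were often not detectable.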
